A study of Mus musculus with 2 samples.

Results

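The Polycomb repressive complexes were examined through 35 genes that encode their subunits and close cofactors, each found by its gene symbol among the 55348 gene entries of both RNA-seq count tables. The series holds 2 libraries of total RNA from mouse hearts at embryonic stage E13.5, 1 from wild-type embryos and 1 from embryos homozygous for the Lmna H222P mutation (Lmna H222P/H222P), both of strain 129sv. Lmna encodes lamins A and C, and H222P is a missense mutation that models human laminopathy with heart and muscle disease. It is carried in the germline, so that every cell of the mutant heart bears it. The study is concerned with the histone demethylase LSD1 in this model. The labels give no treatment with a drug for either group and leave out the number and the sex of the hearts. With 1 library per genotype there is no replicate check and no test. Every difference below lies between these 2 libraries, and every interval is a 95% exact interval that covers counting error only.

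Polycomb proteins keep developmental genes silent and work as several complexes. Polycomb repressive complex 2 (PRC2) methylates lysine in the tail of histone H3 through EZH1 or EZH2, with EED and SUZ12 as obligate partners. PRC1 ubiquitinates histone H2A through RING1 or RNF2 (RING1B), each bound to 1 of the PCGF proteins. In canonical PRC1 a CBX protein reads the PRC2 mark and PHC proteins bring complexes together, whereas variant PRC1 carries RYBP or YAF2 in place of CBX. A further complex, the Polycomb repressive deubiquitinase (PR-DUB), formed by BAP1 and an ASXL protein, removes the ubiquitin. In the developing mouse heart, loss of Ezh2 or Eed in cardiac cells is known to derepress genes of other lineages and to disturb chamber growth.

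Most Polycomb genes lay within 1.5-fold between the libraries and the set shared no direction, while shares of reads within some families differed. All 35 genes had a mean of at least 1 CPM (read counts relative to library size, with sizes scaled between libraries by TMM factors), and 34 had at least 5 CPM. Summed over the set, the level was 2834 CPM for wild type and 2764 CPM for Lmna H222P/H222P. Epop was the single gene at least 1.5-fold higher in the mutant library, against 10.9% of all 14716 genes measured at this level. Cbx6 was the single gene at least 1.5-fold lower, against 11.4% of all genes. Among protein-coding genes within the CPM range spanned by the Polycomb genes, 9.18% were at least 1.5-fold higher and 9.95% lower. The other 33 Polycomb genes (94.3%) lay within 1.5-fold, compared with 77.7% of all measured genes and 80.9% of the protein-coding genes in the same CPM range. The Polycomb genes were somewhat more deeply read than that range as a whole, with a median of 52.8 CPM against 31.1 CPM.

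The median log2 ratio of the 35 genes, Lmna H222P/H222P over wild type, was -0.02, beside -0.01 over all measured genes. Of the 35 ratios, 16 lay above 0 and 19 below. For 13 genes (37.1%) the whole counting interval lay above 0, where 31.6% of all measured genes did so. For 10 genes (28.6%) it lay below 0, beside 34.2% of all genes, and for 12 it included 0. These shares stand near those of all genes. Under scaling by total counts alone, the median of all genes moved by 0.15 on the log2 scale, the Polycomb median moved with it to 0.14, and 8 genes changed sign. Under that scaling Epop, Cbx2 and Pcgf6 were at least 1.5-fold higher, where 15.2% of all genes were, and no Polycomb gene was 1.5-fold lower, where 7.74% of all genes were. The share of higher genes among all genes past 1.5-fold went from 48.8% to 66.3%.

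**Figure D1:**
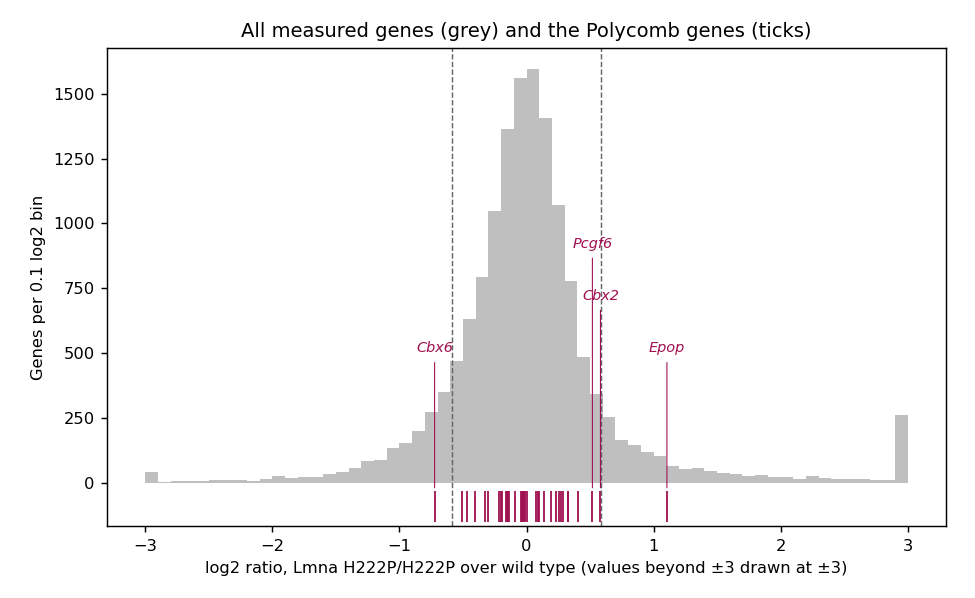
Histogram of the log2 ratio, Lmna H222P/H222P over wild type, for 14716 measured genes (grey, in genes per bin), with 1 tick below the axis for each Polycomb gene and dashed lines at 1.5-fold. The ticks lie between -0.72 (Cbx6) and 1.11 (Epop), and 33 of 35 fall between the dashed lines.

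The wild-type library held 32669225 reads on genes and the mutant library 25120790, of which the Polycomb genes held 0.269% and 0.291%. The 2 libraries differed in the level of cell type markers. Of 15 cardiomyocyte markers, all measured, 12 were at least 1.5-fold lower in the mutant library and 0 were higher, and their summed level was 33702 CPM in wild type and 17512 CPM in the mutant. All 17 hepatocyte markers were at least 1.5-fold higher, with sums of 36.2 and 6509 CPM, and 12 of 13 markers of red cell precursors were higher (530 and 2976 CPM), with no marker of these lists at 0 in either library. The lowest hepatocyte marker stood at 0.032 CPM in wild type, below the 0.097 CPM that 3 reads equal. Endothelial markers were 7 of 10 lower (1177 and 768 CPM), fibroblast markers 6 of 10 lower and 3 higher (4814 and 2365 CPM), and neural markers 7 of 10 higher (30.4 and 75.5 CPM). Of 25 genes of DNA replication (S phase), 24 had ratios above 0 and 4 were at least 1.5-fold higher (2645 and 3373 CPM). Markers of the G2/M phase summed to 3467 and 3820 CPM (1 of 18 higher, 0 lower) and globins to 11769 and 17510 (3 of 7 higher, 0 lower). Macrophage markers summed to 113 and 99.0 CPM (1 of 8 higher, 1 lower). Lung markers summed to 119 and 142 CPM but were split, with 3 of 10 higher and 4 lower and log2 ratios from -6.91 to 2.00. The part of these cells, and of cell cycle genes, in the Polycomb values was not tested, and in bulk RNA fewer cells of a type and less RNA per cell cannot be told apart.

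**Figure D2:**
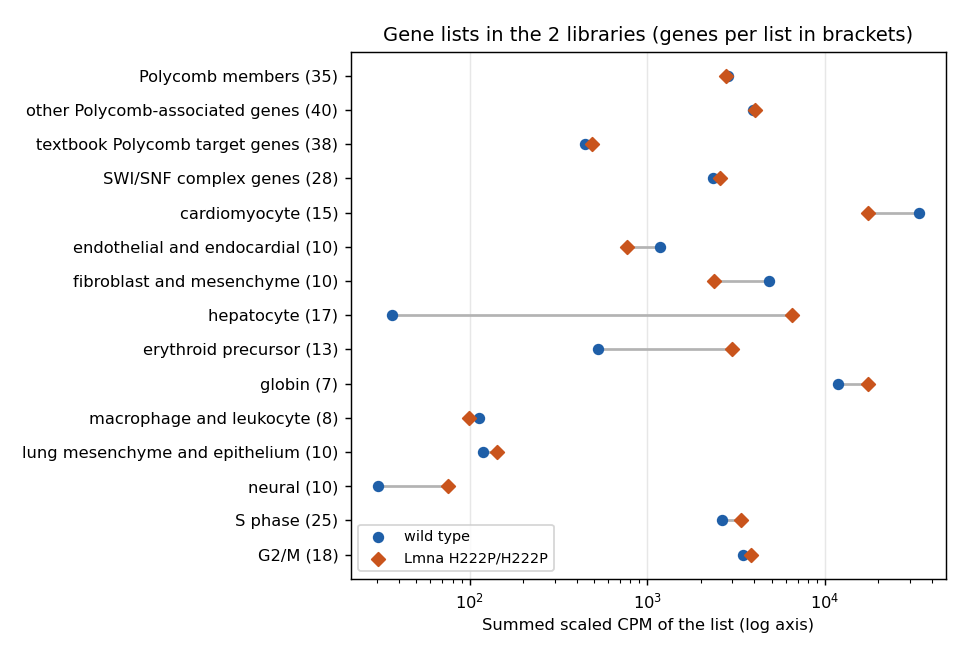
Summed CPM on a log axis for each gene list in the wild-type (circles) and Lmna H222P/H222P library (diamonds). The Polycomb genes sum to 2834 and 2764 CPM, while the hepatocyte list goes from 36.2 to 6509 CPM and the cardiomyocyte list from 33702 to 17512 CPM.

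In the PRC2 core, Ezh2 and Suz12 were slightly higher in the mutant library, and Ezh1 was not resolved from its wild-type level. The histone-binding subunits Rbbp4 and Rbbp7 were slightly lower in the mutant library, but this did not hold with total-count scaling. Ezh2, the main methyltransferase of dividing cells (chr6:47530139-47595341, mm10), had 2747 reads (88.7 CPM) in wild type and 2829 reads (107 CPM) in the mutant, which gave a log2 ratio of 0.27 (interval 0.19 to 0.35). Suz12, the scaffold subunit (chr11:79993106-80034123), had 4577 reads (148 CPM) and 4591 reads (173 CPM), which gave a log2 ratio of 0.23 (0.17 to 0.29). Both genes were thus higher by amounts well inside 1.5-fold. Eed, which binds the methyl mark and stimulates the enzyme (chr7:89954654-89980983), had 1740 and 1566 reads and a log2 ratio of 0.07 (-0.03 to 0.17). Ezh1, the paralogue typical of tissues that divide little (chr11:101191115-101226463), had 594 and 462 reads, which gave a log2 ratio of -0.14 (-0.31 to 0.04). Its ratio was 0.02 when libraries were scaled by total counts, so Ezh1 shows no stable direction. Rbbp4 and Rbbp7 are also subunits of other chromatin complexes, and at 480 and 413 CPM in wild type they were the most abundant of the set. Their log2 ratios were -0.16 (-0.19 to -0.12) and -0.09 (-0.13 to -0.06). With total counts they became -0.004 for Rbbp4 and 0.06 for Rbbp7. The median of the 6 core genes was -0.01.

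Ezh2 and Eed are known targets of E2F factors, which drive S phase genes, and the promoter windows of the set were searched for the E2F-type motifs TTTCCCGC, TTTGGCGC, TTTCGCGC and TTTGCCGC on both strands. RefSeq windows (GRCm38.p6), 250 bases before to 50 from the start site on, were held for 30 of the 35 genes, and Epop, Pcgf1, Cbx2, Rybp and Yaf2 had none. A motif was present in 3 of the 30 genes (10.0%), against 2.60% of 27025 genes with a window, and the window of Eed held none. The windows of the set were rich in CpG (median 23 CpG per 300-base window against 7 over all windows). Each motif searched contains CG and the share over all genes was not matched for CpG, so the shares are not read as a trait of the set. The motif positions, counted from the start site as 1, were 4 in Ezh2 (chr6:47594981-47595280, minus strand), -219 in Suz12 (chr11:79992856-79993155, plus strand) and -208 in Phf19 (chr2:34913927-34914226, minus strand, motif on the opposite strand of the gene). The 3 windows are printed because they hold the motif, and that of Cbx6 (chr15:79834284-79834583, minus strand) because Cbx6 was the lowest gene of the set. Capitals mark the motif, and the Cbx6 window has none.
Ezh2: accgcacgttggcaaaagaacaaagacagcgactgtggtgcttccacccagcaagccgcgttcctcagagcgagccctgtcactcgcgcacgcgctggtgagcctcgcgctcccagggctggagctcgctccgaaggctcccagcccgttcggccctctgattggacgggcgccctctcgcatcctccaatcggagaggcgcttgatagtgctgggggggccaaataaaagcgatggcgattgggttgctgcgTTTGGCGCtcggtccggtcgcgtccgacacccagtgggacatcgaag
Suz12: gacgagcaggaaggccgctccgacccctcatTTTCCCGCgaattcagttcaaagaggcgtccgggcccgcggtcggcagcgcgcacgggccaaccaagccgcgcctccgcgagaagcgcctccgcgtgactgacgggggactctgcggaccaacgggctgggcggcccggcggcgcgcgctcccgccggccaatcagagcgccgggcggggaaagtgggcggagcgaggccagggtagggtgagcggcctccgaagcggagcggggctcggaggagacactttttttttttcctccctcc
Phf19: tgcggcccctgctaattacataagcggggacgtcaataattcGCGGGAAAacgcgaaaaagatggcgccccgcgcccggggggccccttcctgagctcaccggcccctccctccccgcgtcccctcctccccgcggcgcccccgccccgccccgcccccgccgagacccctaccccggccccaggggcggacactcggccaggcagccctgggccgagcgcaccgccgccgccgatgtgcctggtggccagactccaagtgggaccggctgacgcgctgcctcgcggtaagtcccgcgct
Cbx6: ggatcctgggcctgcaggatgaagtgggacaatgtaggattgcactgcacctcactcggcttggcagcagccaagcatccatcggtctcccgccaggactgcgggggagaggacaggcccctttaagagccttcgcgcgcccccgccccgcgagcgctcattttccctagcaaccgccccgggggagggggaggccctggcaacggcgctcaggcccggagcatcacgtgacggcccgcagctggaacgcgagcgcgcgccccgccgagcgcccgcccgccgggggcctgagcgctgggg
Of the 3 genes with a motif, Ezh2 and Suz12 had log2 ratios of 0.27 and 0.23, and Phf19 was not resolved from 0 (-0.14, interval -0.47 to 0.17). A match describes the letters of the window and is not evidence of binding.

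Among the PRC2 accessory genes, Epop stood apart with the highest ratio of the whole set, and Jarid2 was higher by a smaller amount. Epop, which links PRC2 to elongin (chr11:97627389-97629702), had 133 reads (4.29 CPM) in wild type and 245 reads (9.25 CPM) in the mutant library. This was a 2.15-fold higher level (1.74 to 2.68), at percentile 94.8 of all measured genes, and it stayed between 1.08 and 1.26 on the log2 scale under all 9 alternative settings. Epop was also among the least abundant genes of the set, so that this ratio rests on few reads. Jarid2, a DNA-binding partner that helps to place PRC2 (chr13:44729474-44921643), had 2486 and 2669 reads, which gave a log2 ratio of 0.33 (0.25 to 0.41). Aebp2, found in the same form of PRC2, had 2569 and 2170 reads and a log2 ratio of -0.02 (-0.10 to 0.07). The polycomb-like proteins MTF2, PHF1 and PHF19 define the other form of PRC2. Mtf2 was the main one, with 3474 and 3169 reads and a log2 ratio of 0.09 (0.02 to 0.16), whereas Phf1 (349 and 257 reads, -0.21) and Phf19 (189 and 146 reads, -0.14) had intervals that included 0.

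**Figure D3:**
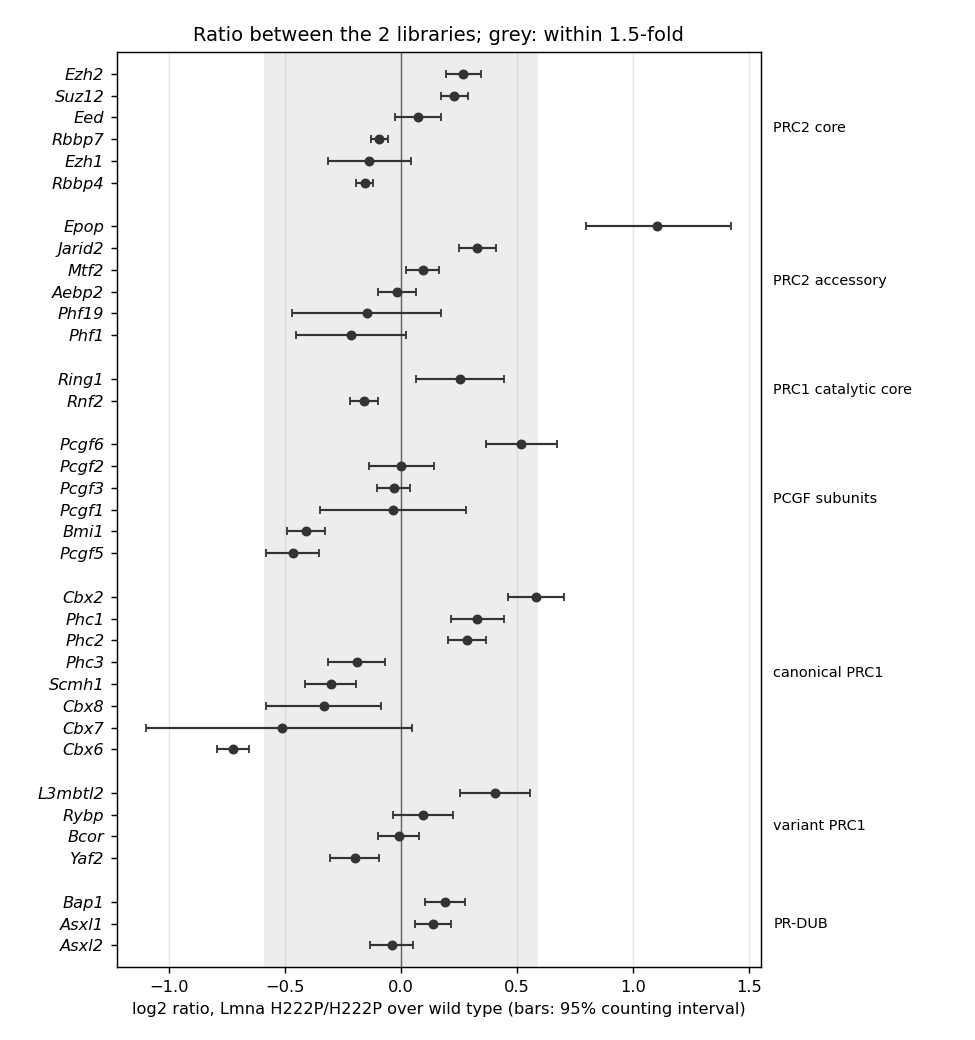
Log2 ratio, Lmna H222P/H222P over wild type, of each Polycomb gene grouped by complex, with bars for the 95% counting interval and the range within 1.5-fold in grey. Epop (1.11) lies to the right of the grey range, Cbx6 (-0.72) to its left, and Cbx2 (0.58) just inside its right edge.

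In the catalytic core of PRC1 the 2 paralogues differed in opposite directions. Rnf2, the more abundant ubiquitin ligase (chr1:151458004-151500955), had 4941 reads (159 CPM) in wild type and 3782 (143 CPM) in the mutant, which gave a log2 ratio of -0.16 (-0.22 to -0.10). Ring1 (chr17:34020792-34024680) had 450 reads (14.5 CPM) and 459 (17.3 CPM), which gave a log2 ratio of 0.25 (0.06 to 0.45). Rnf2 came close to 0 (-0.01) with total-count scaling, but the share of Ring1 among reads of the pair, which does not depend on scaling, was 8.35% (7.62 to 9.12) in wild type and 10.8% (9.90 to 11.8) in the mutant.

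The PCGF subunits, which decide which PRC1 complex is formed, spread from -0.47 to 0.52 around a median of -0.03. Bmi1 (PCGF4), a subunit of canonical PRC1 known for repressing cell cycle inhibitors in stem cells (chr2:18677018-18686629), had 3062 reads (98.8 CPM) in wild type and 1971 (74.4 CPM) in the mutant. It was 1.33-fold lower (1.25 to 1.41). Its close paralogue Pcgf2 (MEL18), with 917 and 785 reads, had a log2 ratio of 0.00 (-0.14 to 0.14). Pcgf5, of variant PRC1 (chr19:36348309-36460970), had 1648 reads (53.2 CPM) and 1020 (38.5 CPM) and was 1.38-fold lower (1.28 to 1.49). Pcgf3, also of variant PRC1, had 3487 and 2919 reads and a ratio of -0.03 (-0.10 to 0.04). Within this family the lower genes were therefore Bmi1 and Pcgf5, each with a near neighbour that differed by less than counting error. Pcgf6 (chr19:47033617-47050906) went the other way, with 627 reads (20.2 CPM) and 768 (29.0 CPM), 1.43-fold higher (1.29 to 1.59). Pcgf1, the partner of BCOR, had 188 and 157 reads and a ratio of -0.03 (-0.35 to 0.28).

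Canonical PRC1 had the lowest median of the groups (-0.25, 8 genes), and its CBX readers ranged from -0.72 to 0.58. Cbx6 (chr15:79823896-79834688) had 5246 reads (169 CPM) in wild type and 2716 (103 CPM) in the mutant library. It was 1.65-fold lower (1.58 to 1.73), and under total-count scaling the log2 ratio of -0.72 became -0.57, short of 1.5-fold. Cbx2 (chr11:119022962-119031270), the CBX protein known for compacting nucleosomes, had 997 reads (32.2 CPM) and 1276 (48.2 CPM). It was 1.497-fold higher (1.38 to 1.63), just under the 1.5-fold bound, and passed that bound with total counts (log2 ratio 0.73) and when the deeper library was thinned. The main reader by read number was thus lower in the mutant library and the second one higher. Cbx8 (337 and 229 reads) had a log2 ratio of -0.33 (-0.58 to -0.08). Cbx7, a reader prominent in adult tissues and stem cells, was barely present in either library (72 and 43 reads) and had a log2 ratio of -0.51 (-1.10 to 0.05).

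The polyhomeotic genes, whose SAM domains join PRC1 complexes, were split. Phc1 had 1199 and 1287 reads with a log2 ratio of 0.33 (0.21 to 0.44), and Phc2 had 2406 and 2507 reads with 0.29 (0.20 to 0.37). Phc3 had 1302 and 975 reads with a log2 ratio of -0.19 (-0.31 to -0.07). Scmh1, a further SAM-domain partner, had 1666 reads in wild type and 1154 in the mutant and a log2 ratio of -0.30 (-0.41 to -0.19). All 4 kept their sign under every alternative.

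Variant PRC1 genes also pointed both ways. L3mbtl2, which sits in a PRC1 complex with PCGF6 (chr15:81663889-81688315), had 674 reads (21.8 CPM) in wild type and 763 (28.8 CPM) in the mutant, 1.32-fold higher (1.19 to 1.47). It thus lay on the same side as Pcgf6. Mga (3790 and 3285 reads) and E2f6 (2599 and 2199 reads), further partners of that complex picked out after their values were seen, had log2 ratios of 0.02 and -0.01. They are not all of its partners. Rybp, an activator of PRC1 ligase activity, had 1035 and 945 reads and a ratio of 0.10 (-0.03 to 0.22), and its paralogue Yaf2 had 1748 and 1301 reads and a ratio of -0.20 (-0.30 to -0.10). Bcor, the corepressor of the PCGF1 complex, had 2298 and 1951 reads and a ratio of -0.01 (-0.10 to 0.08). In PR-DUB the deubiquitinase Bap1 (2155 and 2101 reads) had a log2 ratio of 0.19 (0.10 to 0.28) and its cofactor Asxl1 (2810 and 2644 reads) one of 0.14 (0.06 to 0.22). The second cofactor Asxl2 (2043 and 1698 reads) had a ratio of -0.04 (-0.13 to 0.05).

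Read shares within a family compare paralogues inside 1 library and do not depend on how the libraries are scaled. The largest difference was in the Cbx family, taken here as the 4 Cbx genes of the set. Cbx2 held 14.99% (14.1 to 15.9) of their 6652 reads in wild type and 29.9% (28.6 to 31.3) of 4264 reads in the mutant. Cbx6 held 78.9% (77.9 to 79.8) and 63.7% (62.2 to 65.1), while Cbx8 (5.07% and 5.37%) and Cbx7 (1.08% and 1.01%) had overlapping counting intervals. Per kilobase of exon, Cbx6 led with 59.5% in wild type, and in the mutant Cbx2 led with 48.0% against 41.0% for Cbx6. The order of the 2 leading readers thus differed between the libraries on the length-adjusted scale only, as Cbx6 led by read number in both. That scale rests on unions of annotated exons, 10609 bases for Cbx6 and 4257 for Cbx2. Such a union can be longer than the transcript in use, so the order per kilobase is uncertain.

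In the Pcgf family, Bmi1 held 30.8% (29.9 to 31.8) of the reads in wild type and 25.9% (24.9 to 26.9) in the mutant. The share of Pcgf5 was 16.6% (15.9 to 17.3) and 13.4% (12.6 to 14.2). Pcgf6 went from 6.31% (5.84 to 6.81) to 10.1% (9.41 to 10.8) and Pcgf3 from 35.1% (34.2 to 36.1) to 38.3% (37.2 to 39.4). Per kilobase, Bmi1 remained the leading PCGF transcript in both libraries (43.7% and 36.7%). Among smaller shifts, Ezh2 made up 82.2% (80.9 to 83.5) of Ezh reads in wild type and 86.0% (84.7 to 87.1) in the mutant, and per kilobase it exceeded Ezh1 by 5.15-fold and 6.82-fold. Jarid2 made up 49.2% (47.8 to 50.6) of the reads it shares with Aebp2 in wild type and 55.2% (53.7 to 56.6) in the mutant. Phc3 held 26.5% (25.3 to 27.8) of Phc reads and 20.4% (19.3 to 21.6), and Rybp 37.2% (35.4 to 39.0) of the pair with Yaf2 and 42.1% (40.02 to 44.1). In each of these cases the counting intervals of the libraries did not overlap. Such separation does not set these families apart, as counting intervals often excluded 0 at these depths. Over all measured genes, the interval of the log2 ratio lay wholly above 0 for 31.6% and wholly below 0 for 34.2%. The Rbbp4 share was nearly even between libraries at 53.8% (53.2 to 54.4) and 52.7% (52.0 to 53.3). How far such shares vary between hearts of 1 genotype was not measured.

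**Figure D4:**
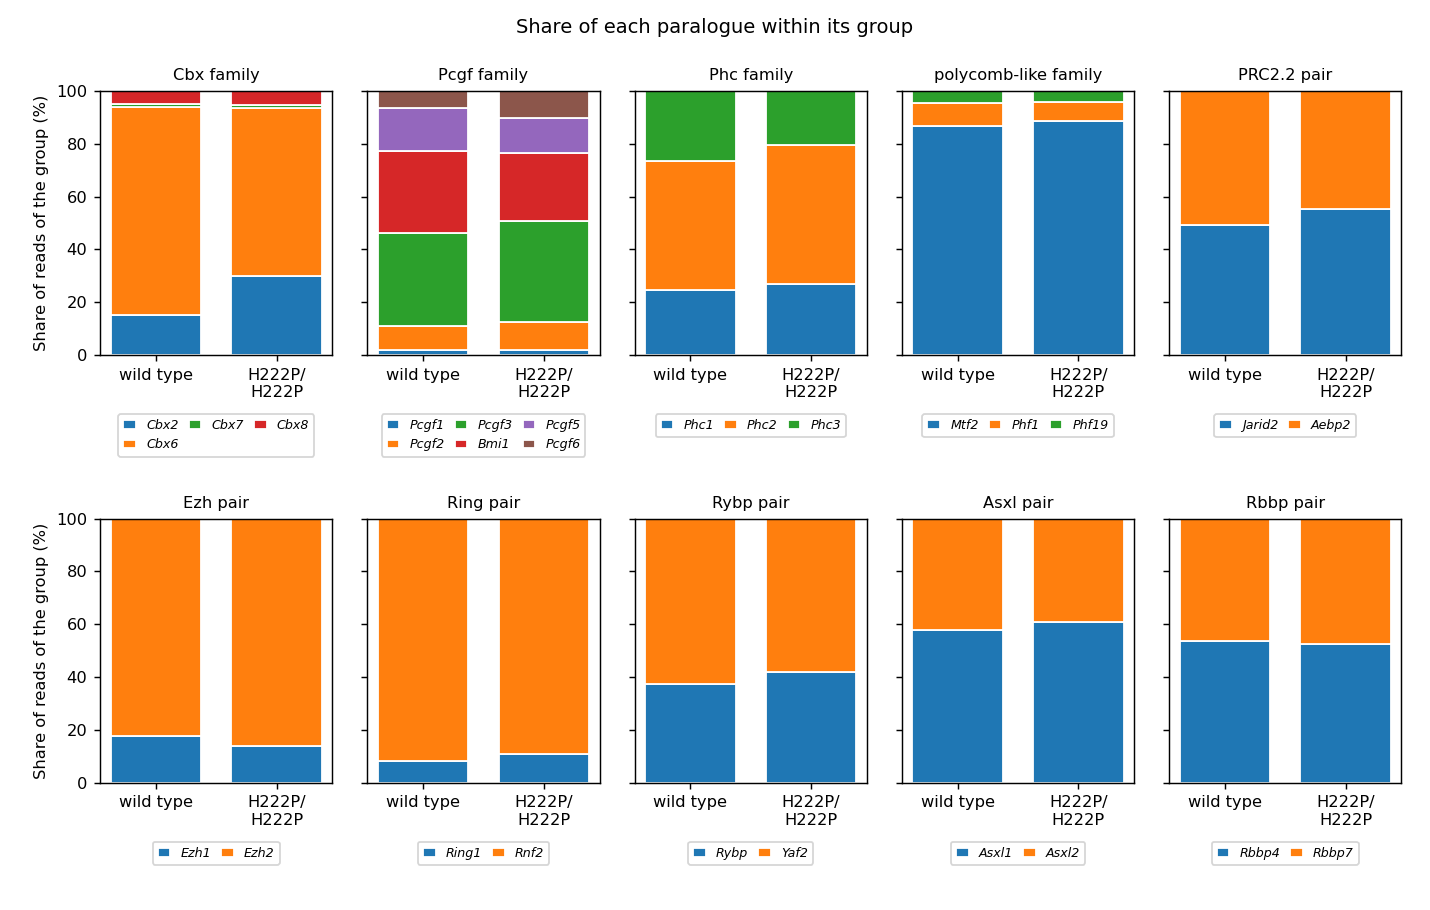
Stacked bars of the percentage of reads that each paralogue holds within its family or pair, in the wild-type and the Lmna H222P/H222P library. The Cbx2 segment goes from 14.99% to 29.9% and the Pcgf6 segment from 6.31% to 10.1%, while the Rbbp4 segment stays near 53%.

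Levels per kilobase of exon, in scaled CPM per kb, placed Rbbp7 first (142 in wild type, 133 in the mutant), then Rbbp4 (54.9 and 49.3), Rnf2 (38.6 and 34.6), Suz12 (29.9 and 35.1) and Yaf2 (30.1 and 26.2). Suz12 and Yaf2 were close together in wild type and apart in the mutant. Bmi1 (24.9 and 18.7) and Mtf2 (19.7 and 20.998) followed, and exchanged places between the libraries. Ezh2 and Eed were alike in level (13.3 and 16.0 for Ezh2, 14.7 and 15.4 for Eed). At the low end were Ezh1 (2.58 and 2.34), Phc3 (2.40 and 2.11), Phf19 (1.21 and 1.09) and Cbx7 (0.358 and 0.250). Exon lengths are unions over annotated transcripts, which lowers the level of genes with many long isoforms such as Phc3, whose union is 17485 bases long.

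**Figure D5:**
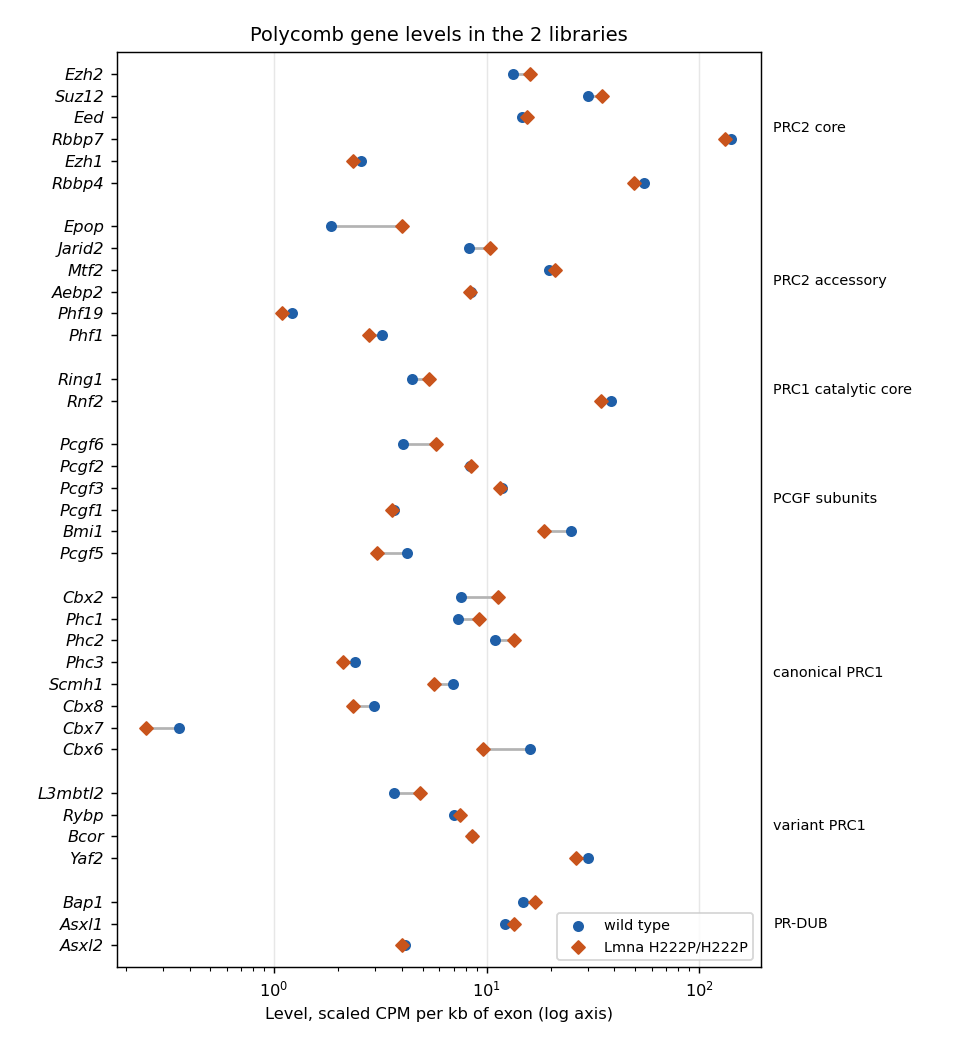
Level of each Polycomb gene in scaled CPM per kb of exon on a log axis, grouped by complex, in the wild-type (circles) and Lmna H222P/H222P library (diamonds). Rbbp7 is highest (142 and 133) and Cbx7 lowest (0.358 and 0.250), and most pairs of points lie close together compared with the range across genes.

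Some of the genes lie side by side in the genome. Cbx2 and Cbx8 lie 5034 bases apart on chromosome 11 on opposite strands, with log2 ratios of 0.58 and -0.33, so these neighbours pointed in opposite directions. Cbx6 and Cbx7 lie 81118 bases apart on chromosome 15 on the same strand, with ratios of -0.72 and -0.51. Epop and Pcgf2 lie 59120 bases apart on chromosome 11 on the same strand, with ratios of 1.11 and 0.00.

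A list of 40 other Polycomb-associated genes, covering further subunits and enzymes that act with or against the complexes, was also mostly within 1.5-fold. All were measured, 39 lay within 1.5-fold, 1 was at least 1.5-fold higher and 0 were lower, beside the 10.9% and 11.4% of all genes given above. The 1 higher gene was Sfmbt2 (76 and 100 reads, which gave a log2 ratio of 0.62 with an interval of 0.18 to 1.07), named after its value was seen. With the deeper library thinned 0 genes of the list were higher and 1 was lower. The 5 CPM filter gave 0 of 39 higher, and total counts 2 of 40. The median log2 ratio of the list was 0.11, with 26 genes above 0 and 14 below, where 49.2% of all measured genes lay above 0. Trim28, a general corepressor and the most abundant of the list, had 9843 and 10457 reads, which gave a log2 ratio of 0.31 (0.27 to 0.35). Among genes with at least 5 CPM the highest was Sfmbt1 (870 and 1034 reads, 0.48) and the lowest Scml2 (323 and 191 reads, -0.53), both relatives of the MBT-domain and SAM-domain Polycomb proteins.

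Gene counts can be affected by overlap and by copies. Phf1, Rbbp4 and L3mbtl2 overlap genes on the opposite strand over 39.3%, 18.0% and 17.2% of their exon bases. Phf1 and L3mbtl2, like Mtf2, had fewer reads in the unstranded than in the stranded column. So did Eed, Asxl1, Asxl2 and Pcgf5, by smaller amounts, and Cbx7 in the wild-type library only. The log2 ratios of the 35 genes did not leave their counting intervals when the unstranded column was used. On the same strand, Cbx6 shares 563 exon bases (5.3%) with Npcd, and the Npcd entry held 0 reads in both libraries. Transcripts at least 90% identical over at least 500 bases are annotated at another locus for 6 of the genes, namely Aebp2, Rbbp4, Rbbp7, Bmi1, Pcgf1 and Rybp. The entries for these copies held few reads (at most 53 in wild type and 66 in the mutant, for the Rbbp7 copy). The tables list reads that map to several places apart from the gene counts, so levels of these 6 genes are uncertain to that extent.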

How the data were processed

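Total RNA of mouse hearts at embryonic day 13.5 was sequenced in 2 libraries, 1 per genotype label. The authors deposited raw read counts per gene without normalization. The submitters' processing notes name STAR, HTSeq, DESeq and build mm10, with no versions or roles, while the annotation release was not given in the sources used here. The reverse-strand column was used, which held 19.3 and 20.5 times the reads of the forward column, and 4 summary entries were left out. Counts were scaled with TMM factors (edgeR 4.0.16, R 4.3.3), 0.948 for wild type and 1.05 for the mutant. The log2 ratio used a prior count of 0.5, and its interval is the Clopper-Pearson interval of the share of reads (scipy 1.17.1). Without molecular identifiers reads are not independent molecules, so intervals cover counting error only. No test was possible with 1 library per group. Genes averaging 1 CPM or more were counted as measured, and 1.5-fold as apart. At these depths 3 reads equal 0.097 and 0.113 CPM. Coordinates and exon lengths are from GENCODE M21 (GRCm38, the assembly of mm10), and copies were sought with BLAST 2.17.0. The steps were tested on simulated counts. All 35 genes may be named. From other lists, the most abundant gene and, at 5 CPM or more, the highest, the lowest and those 1.5-fold apart may be named. The members and lists were chosen with earlier results of these data known. The 9 alternatives are size factors of DESeq2 1.42.0, scaling by total counts, omission of the filter, a 5 CPM filter, a prior count of 5, unstranded counts, scaling without liver, erythroid and globin genes, thinning of the deeper library, and protein-coding genes only.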

Additional observations from a re-analysis of the deposited data

How the results depend on the processing

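With total-count scaling 3 Polycomb genes were at least 1.5-fold higher (Cbx2, Epop, Pcgf6) and 0 were lower, in place of 1 and 1, beside 15.2% and 7.74% of all genes under that scaling. With the deeper library thinned 2 were higher (Cbx2 and Epop). The other 7 alternatives gave 1 higher (Epop) and 1 lower (Cbx6). The median of the set lay between -0.05 (DESeq2 size factors) and 0.14 (total counts), and its distance from the median of all genes stayed within 0.05. Total counts moved 26 of 35 single ratios outside their counting intervals, and no other alternative moved 1. The sign differed from the main value in at least 1 alternative for 9 genes: for Ezh1, Phf19, Aebp2, Rbbp7, Pcgf1, Pcgf3, Asxl2 and Bcor with total counts, and for Pcgf2 with DESeq2 size factors, unstranded counts and thinning. Unstranded counts lowered the wild-type Phf1 share of the polycomb-like genes from 8.70% to 6.42%. Of the Polycomb target genes 7 of 13 were at least 1.5-fold higher and 0 lower (10.9% and 11.4% of all genes). Without the filter on low counts 18 of 31 were higher and 1 lower (24.0% and 21.5% of all genes). At 5 CPM 3 of 8 were higher and 0 lower (7.11% and 9.25%). A gene that passes a filter through 1 library alone has to differ, so these counts are not read as a change of the list. No paired analysis was possible because each genotype has 1 library. Variation between hearts could not be measured at any depth.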

Other observations

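A list of 38 genes known as Polycomb targets in embryos (mostly developmental regulators, with cell cycle inhibitors and a few genes used by the heart) had 25 members below a mean of 1 CPM. In the wild-type library 10 had 0 reads and in the mutant library 7, and the same 7 were at 0 in both. Cdkn2a, the cell cycle inhibitor locus known for Polycomb repression, had 3 reads in each library, at the level of the floor (picked out after its value was seen). The other 13 genes averaged 1 CPM or more, and a gene that passes this filter through 1 library alone has to differ, so their count is not read as a change of the list. Six2 had 14 reads (0.452 CPM) in wild type and 298 (11.3 CPM) in the mutant, which gave a log2 ratio of 4.59 (3.87 to 5.53). It passed the filter through the mutant library alone, so this ratio had to be high and is not read as a change. Isl1, which marks progenitors of the second heart field, had 148 and 606 reads and a log2 ratio of 2.26 (2.00 to 2.53). Hoxb4 had 185 and 354 reads and a log2 ratio of 1.16 (0.90 to 1.43). Among genes of this list that the heart itself uses, the 2 most abundant lay within 1.5-fold: Gata4 had 6104 and 4221 reads (-0.31, interval -0.36 to -0.25) and Acta1 5483 and 4839 reads (0.05, -0.01 to 0.10). Neural markers were higher in the same library (7 of 10 at least 1.5-fold, sums of 30.4 and 75.5 CPM). None of them was at 0, but the lowest stood at 0.032 CPM in wild type. Hepatocyte markers were higher too (17 of 17), and the part of both lists in these values was not tested.

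The SWI/SNF complexes, chromatin remodellers known to oppose Polycomb, were read in the same way. Of 28 listed genes 27 were measured, 25 lay within 1.5-fold, 2 were higher and 0 were lower, with a median log2 ratio of 0.10. Of all measured genes 77.7% lay within 1.5-fold, 10.9% were higher and 11.4% lower. Smarcd2 had 957 and 1324 reads and was 1.62-fold higher, while its paralogue Smarcd3, the form enriched in heart, had 2290 and 1529 reads and a log2 ratio of -0.36 (-0.45 to -0.26). Smarcc1, the most abundant of the list on average, had 6737 and 7136 reads, which gave a log2 ratio of 0.31 (0.26 to 0.36).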
